A study of Homo sapiens with 14 samples.

Results

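The untreated DRIP-seq peak lists of Nalm-6 cells were compared between SF3B1-K700E (MT) and SF3B1-K700K (WT) cells, as 2 MT against 2 WT lists of the 14 samples of the series. All 4 lists were used whole, with no peaks subtracted. Nalm-6 is a human leukemic B cell line, and both genotypes were isogenic lines that carry either SF3B1 allele. The DNA of all 4 samples was cut with the same restriction enzymes (HindIII, EcoRI, BsrGI, XbaI and SspI) and pulled down with the S9.6 antibody. Another 2 lists of each genotype came from DNA digested with RNase H1 (RNH1) before the pull-down, and their values are given beside those of the untreated lists. Whether the lists of a genotype come from separate cultures or clones is not given in the sources used here, so the spread between them may be technical.

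R-loops form when a nascent RNA anneals to its DNA template and leaves the other strand unpaired. They arise most readily over transcribed DNA and are removed by RNases H, which digest the RNA of the hybrid, and by helicases such as senataxin and aquarius. SF3B1 is the subunit of the U2 snRNP that grips the branch site of an intron, and K700E is a hotspot mutation of it in blood cancers. DRIP-seq enriches DNA fragments that carry DNA:RNA hybrids, which S9.6 binds, and a peak marks a stretch where reads pile up over the local background.

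The comparison asks where MT cells carry more or fewer DRIP peaks than WT cells. On chromosomes 1 to 22 and X, WT cells had 123582 and 130928 peaks and MT cells 253744 and 295970. Both MT lists were longer than both WT lists, by 2.16-fold on average, a log2 ratio of 1.11 (SD 0.168, n = 2 each). A two-sided exact permutation test gave p = 0.333, the smallest that 2 lists against 2 allow. The RNH1-treated lists differed in the same direction and by a larger ratio, with 34857 and 77391 peaks in the WT lists and 201117 and 198158 in MT cells. More hybrids per cell, more cells with hybrids and deeper sequencing cannot be told apart in such lists. What part of the untreated excess is hybrid signal was not tested. The lists hold no read totals. The background pileup, the number of reads expected by chance at a peak, was recovered from fold enrichment and p value. Its floor in a list, taken as the 1st percentile over the peaks, was 2.99 and 3.13 reads in the WT lists. In MT lists it was 3.51 and 4.35. With every list thinned to the lowest background, a setting chosen after seeing the data, the log2 ratio was 1.07.

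Peaks were then merged over the 4 lists into 414528 regions. Both MT lists and neither WT list had a peak in 133450 of them, both WT lists and neither MT list in 34006, and all 4 lists in 42440. The regions present in both MT lists alone had a median GC content of 41.7%, and those present in both WT lists alone 33.6%. For a view of the DNA itself, the strongest such region in an intron is printed for 3 of the first-ranked genes described below, as 151 bases around the summit on the strand of the gene. Capitals mark runs of 3 or more G or C.

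A peak in both MT lists only, at chr17:64200532-64200682 (GRCh38, − strand, intron of TEX2).
TEX2: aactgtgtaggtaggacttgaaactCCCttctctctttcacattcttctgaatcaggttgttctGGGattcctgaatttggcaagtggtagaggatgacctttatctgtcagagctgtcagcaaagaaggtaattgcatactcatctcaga
Peaks in both WT lists only, at chr18:66592540-66592690 (− strand, intron of CDH19) and chr12:22483933-22484083 (− strand, intron of C2CD5).
CDH19: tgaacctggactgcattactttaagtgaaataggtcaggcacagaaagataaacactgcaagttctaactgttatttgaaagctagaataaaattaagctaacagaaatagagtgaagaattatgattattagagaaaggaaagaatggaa
C2CD5: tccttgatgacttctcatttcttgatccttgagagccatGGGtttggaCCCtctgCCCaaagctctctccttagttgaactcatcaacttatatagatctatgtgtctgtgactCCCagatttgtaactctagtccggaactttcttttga

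The fold enrichment over the local background was 4.99 and 5.05 in the MT lists at the TEX2 site. In the WT lists it was 9.78 and 9.88 at the CDH19 site and 6.81 and 7.28 at the C2CD5 site. The GC content of the 3 stretches was 42.4%, 31.8% and 42.4%, and that of the TEX2 site was the same as that of the C2CD5 site.

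Peaks per gene were counted over the bodies of 19970 protein-coding genes plus 3 kb to each side. In MT cells most genes with a peak held more of them. Both MT lists were above both WT lists in 10219 genes (51.2% of all genes) and below both in 441 (2.21%), while 5541 genes had overlapping or equal lists and 3769 had no peak. Of the 10219 genes, 2105 had no peak in either WT list. Most of the 441 genes had few peaks, with a median of 0.75 per list, and only 47 averaged at least 3 peaks and 6 at least 6. Leaving out 1 list moved the count of lower genes to 1160 without WT replicate 1, 923 without WT replicate 2, 597 without MT replicate 1 and 779 without MT replicate 2.

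Because MT lists were longer throughout, every list was also scaled to the same total. On that scale both MT lists were above both WT lists in 5129 genes (25.7%) and below both in 3871 (19.4%). Peaks carry no strand, and a peak in overlapping genes counts for each. A scaled ratio is a change in a gene's share of the list, not in its number of peaks. limma on log2(scaled peaks + 1), with Benjamini-Hochberg adjustment over the 7378 genes that averaged at least 3 peaks, called 395 genes higher (5.35%) and 330 lower (4.47%) in MT cells at an adjusted p under 0.05. The average was of peaks as deposited, where the MT lists were longer. A gene with few WT peaks could thus enter the test more easily than a gene with few MT peaks. The numbers called higher and lower are therefore not a balanced comparison of the directions. All 395 higher genes had scaled lists apart and so were also higher as deposited. The scaling fixes that outcome, because it lowers the MT counts and raises the WT counts. Of the 330 lower genes, 47 were lower as deposited and 152 were higher in both MT lists, with a smaller gain than the list as a whole. The median scaled log2 ratio over all genes tested was 0.041, and as deposited it was 1.00.

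The number of calls depended on the lists used. With WT replicate 1 or WT replicate 2 left out, limma called 0 genes at that threshold, and 2591 and 2577 at an unadjusted p under 0.05. With MT replicate 1 left out it called 382 genes higher and 156 lower, and with MT replicate 2 left out 394 and 166. With lists scaled within 5% classes of peak GC content, which gives all lists 1 base composition, the calls were 163 higher and 218 lower, and with no scaling 4598 and 19. Whether more genes were called higher or lower therefore changed with the scaling.

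**Figure D1:**
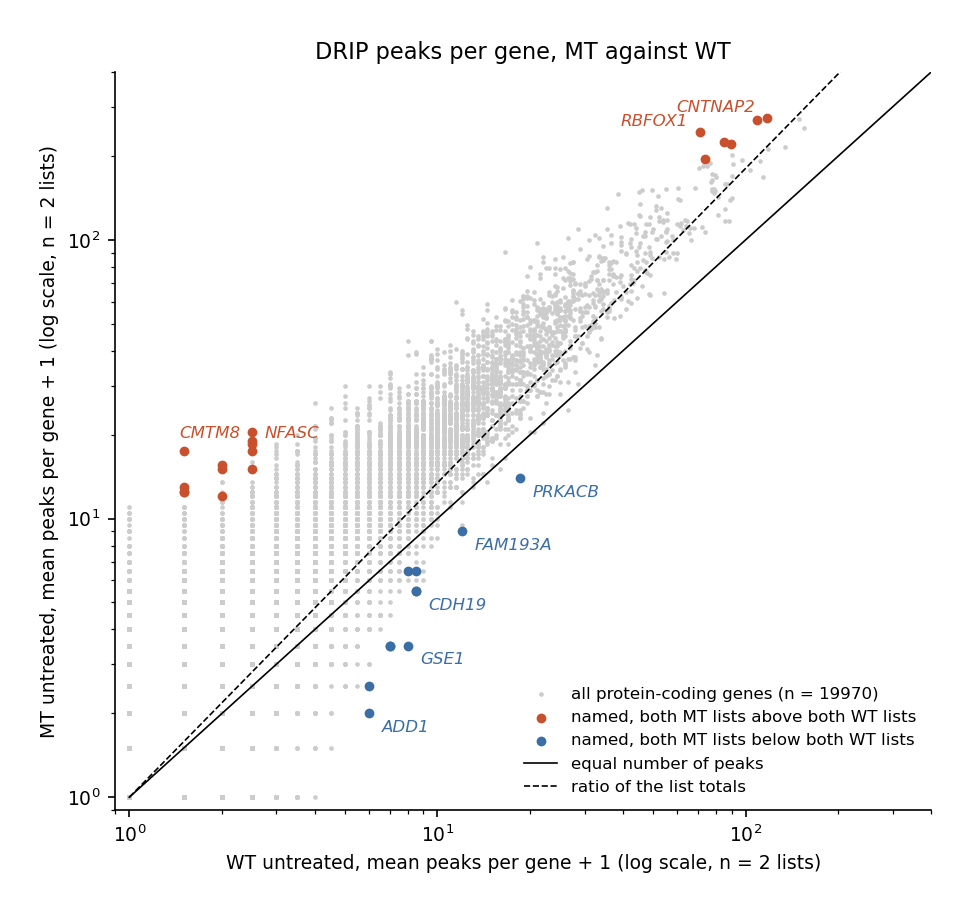
Mean number of DRIP peaks per gene plus 1 in the 2 MT lists against the 2 WT lists, both axes on a log scale, for 19970 protein-coding genes, with the named genes in color. Most genes lie above the solid line of equal numbers and around the dashed line of the list totals, and the named MT-lower genes lie below both lines.

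Among genes higher in both MT lists on both scales and averaging at least 6 peaks (1452 genes), the 12 with the highest scaled ratio were named. CMTM8 (chromosome 3, 32238679 to 32370321), which encodes a membrane protein of the MARVEL family, had 0 and 1 peaks in the WT lists and 14 and 19 in MT cells. Its MT lists shared 10 regions that neither WT list had. TEX2 had 0 and 1 peaks in the WT lists and 11 and 13 in MT cells, and its product acts in lipid transfer at the endoplasmic reticulum. The WT lists were near 0 in both genes, and the groups were far apart. The scaled log2 ratio was 3.03 (SE 0.452) for CMTM8 and 2.62 (SE 0.461) for TEX2. The 12 genes were chosen for their ratio and averaged 6 peaks only through the MT lists, so their values are a description and no p is given for them.

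NFASC, FAT1 and MUC19 were separated as clearly. NFASC, which encodes the neuronal adhesion protein neurofascin, had 2 and 1 peaks in the WT lists and 20 and 19 in MT cells. FAT1, an atypical cadherin, had 1 and 1 peaks in the WT lists and 14 and 15 in MT cells. The mucin gene MUC19 had 2 and 1 peaks in the WT lists and 15 and 18 in MT cells. Their scaled log2 ratios were 2.22, 2.17 and 1.99.

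The other genes of the group had few WT peaks as well. SCRN1 had 1 and 0 peaks in the WT lists and 12 and 11 in MT cells. ABHD2, a lipase gene, had 0 and 1 in the WT lists and 9 and 14 in MT cells. The X-linked zinc finger gene ZC4H2 had 1 and 1 in the WT lists and 12 and 16 in MT cells. The kinesin gene KIF13B (0 and 3 against 17 and 19), the ARF regulator ASAP2 (0 and 3 against 20 and 15), the sphingomyelin synthase gene SGMS2 (3 and 0 against 13 and 15) and the complement protease gene C1S (0 and 2 against 10 and 12) had one WT list with 2 or 3 peaks and one with none.

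In the RNH1-treated lists as deposited the 12 genes had more peaks in MT cells, as did 95.3% of all 4379 genes that averaged at least 6 peaks. CMTM8 had 0 and 3 peaks in the WT lists and 8 and 6 in MT cells, and NFASC 1 and 2 against 11 and 12. Over all 1452 genes, both RNH1-treated MT lists were above both RNH1-treated WT lists after scaling in 686 genes (47.2%) and below in 191 (13.2%), beside 32.7% and 23.9% of the 4379 genes. The RNH1-treated lists were made from portions of DNA prepared with the untreated ones, so they are not separate cultures.

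**Figure D2:**
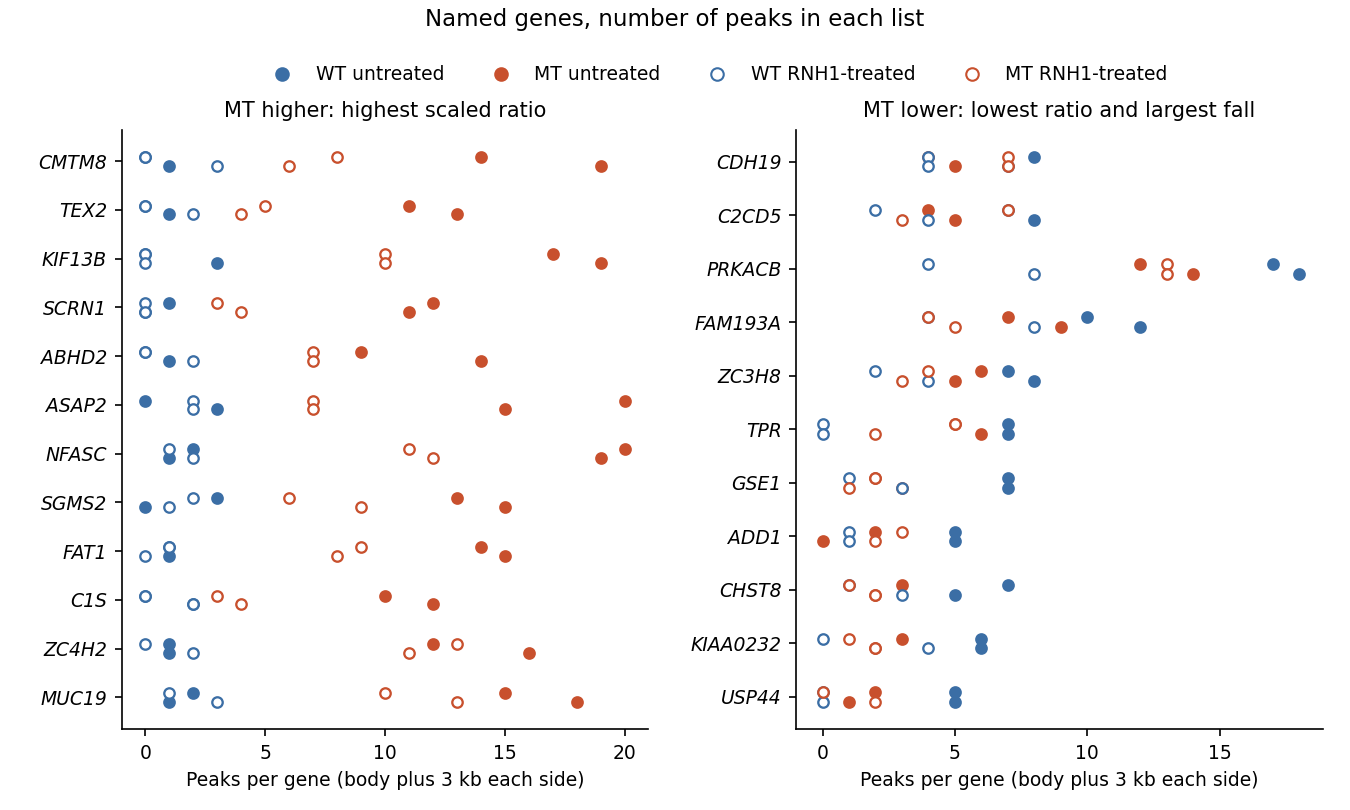
Number of peaks per gene (x axis) in each of the 8 Nalm-6 lists for the 12 genes named as MT higher (left) and the genes named as MT lower (right), with filled points for untreated and open points for RNH1-treated lists, which cover a filled point at the same value. On the left all filled MT points lie at 9 peaks or more and all filled WT points at 3 or fewer, and on the right the filled MT points lie below the filled WT points.

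By the largest gain in number of peaks, 6 very long genes stood first. RBFOX1, a neuronal splicing regulator gene of 2473.5 kb on chromosome 16, had 67 and 73 peaks in the WT lists and 221 and 264 in MT cells. The adhesion gene CNTNAP2 had 110 and 123 in the WT lists and 251 and 292 in MT cells, and MACROD2, which encodes an ADP-ribosyl hydrolase, 104 and 112 against 253 and 283. After scaling the gains were much smaller. The 6 genes were chosen for their gain in these same lists, so their limma values are a description. The scaled log2 ratios were 0.68 (SE 0.047, limma adjusted p = 0.00851), 0.11 (SE 0.042, adjusted p = 0.128) and 0.20 (SE 0.041, adjusted p = 0.0377). The complement regulator gene CSMD1, the neurexin gene NRXN3 and DAB1, an adaptor of reelin signaling, completed the 6, with scaled log2 ratios of 0.295, 0.206 and 0.294 (limma adjusted p = 0.0286, 0.0551 and 0.0324). With scaling within GC classes limma called none of the 6: the log2 ratio was 0.227 for RBFOX1 (adjusted p = 0.066), 0.176 for MACROD2 (adjusted p = 0.077), 0.092 for CSMD1 (adjusted p = 0.353) and −0.13 for DAB1 (adjusted p = 0.244).

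Only 6 genes averaging at least 6 peaks were lower in both MT lists as deposited. PRKACB, a catalytic subunit of protein kinase A, had 17 and 18 peaks in the WT lists and 12 and 14 in MT cells, with 8 regions present in both WT lists alone and 5 in both MT lists alone. The cadherin gene CDH19 had 8 and 7 in the WT lists and 4 and 5 in MT cells, and C2CD5, whose product acts in insulin-stimulated glucose transporter traffic, 7 and 8 against 4 and 5. In these 3 genes the nearest lists of the genotypes were 2 or 3 peaks apart, closer than in the named genes that rose. FAM193A had 10 and 12 against 7 and 9, the zinc finger gene ZC3H8 7 and 8 against 6 and 5, and the nuclear pore gene TPR 7 and 7 against 5 and 6. In the RNH1-treated lists as deposited 3 of the 6 were higher in both MT lists: PRKACB had 4 and 8 peaks in the WT lists and 13 and 13 in MT cells, CDH19 4 and 4 against 7 and 7, and TPR 0 and 0 against 5 and 2. Of all 4379 genes averaging at least 6 peaks, 95.3% were higher in both RNH1-treated MT lists as deposited. After scaling 5 of the 6 were lower in both RNH1-treated MT lists, beside 23.9% of the 4379 genes. In the untreated lists the scaled log2 ratios ran from −1.58 to −1.27, and limma called all 6 lower. Within GC classes the calls of CDH19 (log2 ratio −1.114, adjusted p = 0.0603), ZC3H8 (−1.157, adjusted p = 0.0591) and TPR (−0.52, adjusted p = 0.273) were lost.

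The largest falls in number added 5 genes to PRKACB. GSE1, a chromatin corepressor gene on chromosome 16, had 7 and 7 peaks in the WT lists and 2 and 3 in MT cells. The cytoskeletal adducin gene ADD1 had 5 and 5 in the WT lists and 2 and 0 in MT cells, and the deubiquitinase gene USP44 5 and 5 against 2 and 1. CHST8, a sulfotransferase gene, had 7 and 5 against 3 and 2, and KIAA0232 6 and 6 against 3 and 2. All 5 were called lower by limma, with scaled log2 ratios of −2.11, −2.47, −2.10, −1.88 and −1.89, and within GC classes USP44 lost its call (log2 ratio −1.536, adjusted p = 0.0692). The genes named as lower were chosen on the same lists, so their calls are a description. In the RNH1-treated lists, with their different totals, the 5 genes added to PRKACB had 0 to 4 peaks.

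FAM193A, ADD1 and KIAA0232 lie in the first 7 Mb of chromosome 4. In 1-Mb windows over the genome, both MT lists were above both WT lists in 2846 of 3044 windows (93.5%) and below both in 8 (0.263%), and 6 of these 8 were among the first 7 windows of chromosome 4. The window at chr4:1000001-2000000 had 25 and 29 peaks in the WT lists and 11 and 15 in MT cells, and the window at chr4:3000001-4000000 17 and 21 against 11 and 8. The exception, chr4:5000001-6000000, had 32 and 34 against 27 and 37. Past 7 Mb both MT lists were again above both WT lists, with 20 and 22 peaks in the WT lists and 38 and 39 in MT cells at chr4:7000001-8000000.

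After scaling, limma called all 7 windows lower, with log2 ratios from −2.06 to −1.14, and they held the 6 lowest ratios of all windows with lists apart. Together the 7 windows held 176 and 203 peaks in the WT lists and 118 and 130 in MT cells, or 0.142% and 0.155% of the WT lists and 0.0465% and 0.0439% of the MT lists. In the RNH1-treated lists the shares were 0.181% and 0.203% in the WT lists and 0.0552% and 0.0555% in MT cells, so the difference was as large after RNH1 digestion. The next 7 windows held 0.193% and 0.194% of the WT and 0.234% and 0.228% of the MT peaks.

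The local background differed there too. Of the peaks in the first 7 windows, 82.2% and 76.2% in the MT lists had a local background at the lowest level of the list, against 21.0% and 21.2% in the WT lists. Over all chromosomes the figures were 33.3% and 32.9% in MT and 23.5% and 26.3% in WT lists, and in the next 7 windows 29.0% and 27.0% against 23.4% and 26.4%. The windows were chosen after their values were seen, and the part of the background in the fewer peaks was not tested. The copy number of the MT line was not measured, and fewer copies of this DNA and fewer hybrids on it cannot be told apart. Of 13 genes tested that lie within the 7 windows, 9 were called lower and 0 higher, among them NSD2, a histone H3 lysine 36 methyltransferase gene, with 4 and 4 peaks in the WT lists and 3 and 2 in MT cells, and STK32B, a kinase gene, with 20 and 19 against 18 and 21. NSD2 and STK32B were named after their values were seen.

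**Figure D3:**
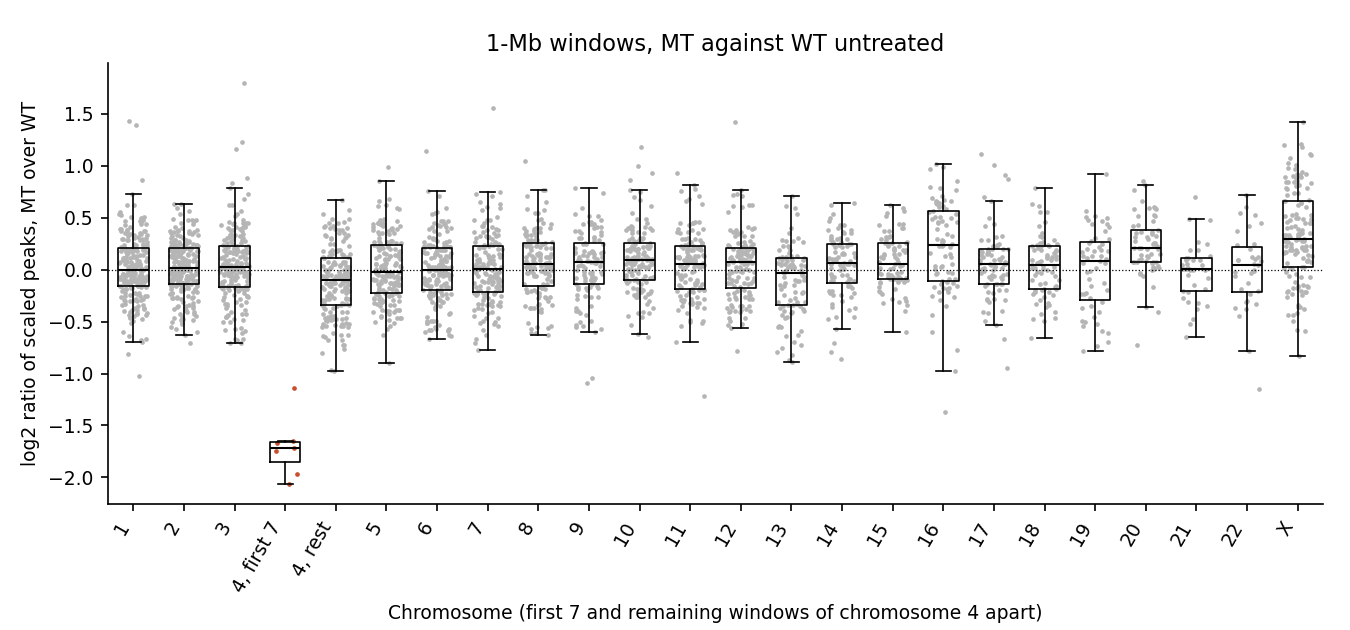
log2 ratio of scaled peaks, MT over WT untreated, of 1-Mb windows averaging at least 10 peaks (points) by chromosome, with the first 7 windows of chromosome 4 apart; boxes give the median and quartiles and whiskers reach 1.5 times the quartile range. The 7 windows lie between −2.06 and −1.14, below the box of every chromosome, and the X chromosome and chromosomes 16 and 20 have the highest medians, of 0.295, 0.241 and 0.210.

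Over all 2829 windows tested, limma called 596 higher (21.1%) and 517 lower (18.3%). The filter for windows was also on peaks as deposited, so windows with few WT peaks entered more easily than windows with few MT peaks. Without MT replicate 1 the windows called higher and lower were 261 and 322, and without MT replicate 2 265 and 359. Within GC classes 188 of the 596 and 93 of the 517 windows were called in the same direction, and 288 of the 517 kept their sign. The highest ratios among windows with lists apart were at chr3:91000001-92000000 (3 and 2 peaks in WT, 19 and 25 in MT cells), chr7:61000001-62000000 (2 and 6 against 24 and 26) and chr1:148000001-149000000 (4 and 2 against 17 and 21). These 3 windows held at most 6 protein-coding genes each and averaged at least 10 peaks only through the MT lists. Unknown bases made up 12.7% of the chromosome 7 window. At chr12:129000001-130000000, with 1 gene, WT lists had 18 and 18 peaks and MT lists 102 and 111 (log2 ratio 1.43, SE 0.119). At chrX:151000001-152000000 they had 9 and 10 against 54 and 60 (log2 ratio 1.42, SE 0.174). This window too averaged at least 10 peaks only through the MT lists. The windows named here were chosen for their ratio in these same lists, so their values are a description.

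The share of peaks on the X chromosome was 1.81% and 1.90% in the WT lists and 2.16% and 2.40% in MT lists. Both MT lists were higher, by 0.298 on the log2 scale (SD 0.119; exact two-sided permutation p = 0.333, as for every chromosome whose lists did not overlap). Of 142 windows tested on X, 46 were called higher and 3 lower, and of 164 genes tested there 23 and 5. The median window ratio on X was 0.295 and, within GC classes, 0.444. The RNH1-treated lists had X shares of 2.39% and 2.13% in the WT lists and 2.99% and 3.07% in MT cells.

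Of 23 chromosomes, 9 had a higher and 7 a lower share in both MT lists, and 7 overlapped. Chromosome 16 rose from 1.84% and 1.88% to 2.17% and 2.17%, and chromosome 20 from 1.73% and 1.73% to 2.05% and 2.03%. Chromosome 4 held 8.24% and 8.10% of the WT and 7.33% and 7.39% of the MT peaks, and chromosome 13 4.04% and 3.99% against 3.67% and 3.66%. Within GC classes the median window ratios of chromosomes 16 and 20 were −0.00634 and −0.0400, beside 0.241 and 0.210 without. Those of chromosomes 4 and 13 were 0.0404 and 0.00545, beside −0.124 and −0.0373 without. In the RNH1-treated lists the shares of chromosome 16 were 2.12% and 2.25% in the WT lists and 2.07% and 2.03% in MT cells, and those of chromosome 4 overlapped, with 7.78% and 7.61% against 7.58% and 7.68%.

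Base composition moved with genotype across the whole comparison. The median GC content of a peak was 37.0% and 37.5% in the WT lists and 41.6% and 41.1% in MT lists, a difference of 4.09 percentage points (SD 0.526; exact permutation p = 0.333). Peaks under 30% GC numbered 12261 and 11547 in the WT lists and 1343 and 2195 in MT lists, so that in this class MT cells had fewer peaks although their lists were longer. Peaks of 50% GC or more numbered 4024 and 5052 in the WT lists and 16765 and 16025 in MT lists. A run of 4 G or 4 C (GGGG or CCCC, either strand) lay within 100 bases of the summit in 44.2% and 45.4% of WT and 57.1% and 55.7% of MT peaks, beside 51.0% of windows of the same length spaced over the genome.

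The restriction fragment under the summit was also longer in MT lists, with medians of 1291 and 1273 bp against 1125 and 1128 bp in WT lists. Width and enrichment hardly differed. Peaks had median widths of 439 and 448 bp in the WT lists and 439 and 441 bp in MT lists, and median fold enrichments of 4.39 and 4.36 in the WT lists and 4.39 and 4.30 in MT lists. With the windows split by GC content into 5 classes of equal size, 380 were called lower and 9 higher in the lowest class. In the class next to the highest 13 were called lower and 222 higher. The highest class broke this order, with 52 lower and 91 higher. Genes called lower also had less GC, with medians of 36.6% among them, 41.8% among those called higher and 40.2% among all genes tested. Of the 395 genes called higher, 109 were called in the same direction within GC classes, and of the 330 called lower, 88. What part GC content or fragment length has in the calls was not tested beyond that.

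**Figure D4:**
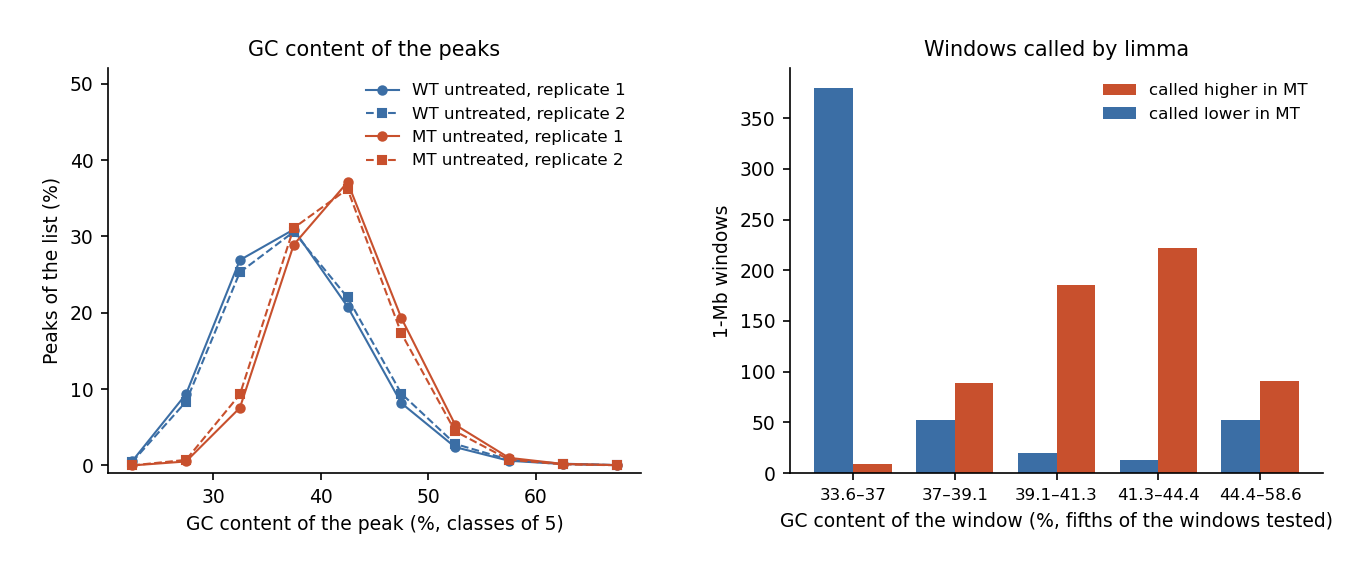
Left, percent of the peaks of each untreated list in classes of 5% GC content; right, number of 1-Mb windows called higher or lower in MT cells by limma in 5 classes of window GC content of equal size. The 2 MT lists peak in the class of 40% to 45% with 37.1% and 36.2% of their peaks and the WT lists in the class of 35% to 40% with 30.9% and 30.6%, and most windows called lower (380 of 517) fall in the lowest class.

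Gene groups were described by the number of members called, beside the 5.35% higher and 4.47% lower among all genes tested, and by their median scaled ratio beside 0.041. Both the groups and all genes tested had passed the filter on peaks as deposited, which genes with few WT peaks passed more easily than genes with few MT peaks. The members named were extremes of their group's ratio in these same lists, so their adjusted p values are a description. Some members given below also averaged at least 3 peaks only through the MT lists. Among them were CENPF, DDX42, SF3B1, METTL6, FOXO1, ZNF155, CHEK2, IKZF1, RPL39L and DPY19L3. Genes that remove or prevent R-loops had 17 of 32 members tested, of which 4 were lower and 0 higher (median −0.0784). The 4 were SAMHD1, a dNTP hydrolase gene, the mRNA export gene THOC2, the helicase gene AQR (aquarius) and WRN, the Werner syndrome helicase gene. AQR had 11 and 13 peaks in the WT lists and 12 and 14 in MT cells, so its number did not fall and its log2 ratio was −0.92 (SE 0.161, limma adjusted p = 0.0266) after scaling. Within GC classes 3 of the 4 calls were lost: the log2 ratio was −0.096 for AQR (adjusted p = 0.833), −0.22 for WRN (adjusted p = 0.519) and −1.052 for THOC2 (adjusted p = 0.0511). SAMHD1 had 5 and 5 in the WT lists and 3 and 5 in MT cells. THOC2 had 7 and 9 in both genotypes, and WRN 17 and 15 against 17 and 21. As deposited, none of the 4 was lower in both MT lists. RNASEH2B, a subunit of RNase H2, had 5 and 2 against 16 and 17 and did not pass (log2 ratio 1.103, adjusted p = 0.100).

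Among 26 DNA damage checkpoint genes, 14 were tested and 1 was called lower (median −0.258). This was WEE1, the kinase that restrains CDK1 before mitosis, with 4 and 4 peaks in the WT lists and 2 and 2 in MT cells (log2 ratio −1.57, SE 0.275, adjusted p = 0.0266). ATM had 11 and 11 against 17 and 18 peaks, a log2 ratio of −0.41 that did not pass. Among 40 centromere and kinetochore genes, 19 were tested, 1 was higher and 1 lower (median −0.213). CENPF, which encodes a large kinetochore-associated protein, had 0 and 1 peaks in the WT lists and 11 and 8 in MT cells (log2 ratio 2.31, SE 0.499, adjusted p = 0.0395), and NUF2, a subunit of the NDC80 complex, 7 and 7 against 7 and 9 (log2 ratio −0.82, adjusted p = 0.0474, and 0.283 within GC classes).

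Among genes of branch site and U2 recognition, 6 of 24 were tested and only the helicase gene DDX42 was called, with 1 and 1 peaks in the WT lists and 8 and 9 in MT cells (log2 ratio 1.49, SE 0.27, limma adjusted p = 0.0278). SF3B1 itself had 1 and 1 in the WT lists and 4 and 6 in MT cells, a log2 ratio of 0.83 (SE 0.315, adjusted p = 0.126). Of 13 splicing targets named by the study, 6 were tested and 0 called (median −0.227), and the median was 0.0116 within GC classes. THOC1, a subunit of the THO complex, had 4 and 5 peaks in the WT lists and 6 and 8 in MT cells. The genes with a Nalm-6 splice event in the study's table, 542 of 605 symbols matched, had 240 members tested, 18 called higher and 12 lower (median 0.00111). Among them METTL6, a tRNA methyltransferase gene, had 1 and 0 against 8 and 9 peaks and was higher (log2 ratio 2.16, adjusted p = 0.0424, and 0.0504 within GC classes). XYLB, the xylulokinase gene, had 5 and 4 against 3 and 3 and was lower (log2 ratio −1.33, adjusted p = 0.0356). Both lists rest on splice events that the study found in its own cell lines, Nalm-6 among them, and are not independent evidence of a direction.

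All 22 large genes at common fragile sites were higher as deposited in both MT lists, as were all 351 genes with as many peaks (a mean of at least 39.5), and after scaling 9 were called higher and 5 lower (median 0.204). WWOX at FRA16D, an oxidoreductase gene, had 15 and 25 peaks in the WT lists and 89 and 103 in MT cells (log2 ratio 1.17, SE 0.191, adjusted p = 0.0239), and the dystrophin gene DMD 24 and 28 against 71 and 92 (log2 ratio 0.52, adjusted p = 0.0309). LRP1B had 108 and 113 against 176 and 206, a log2 ratio of −0.32 (SE 0.042, adjusted p = 0.0192). It turned to 0.106 within GC classes.

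Among B lineage genes, 15 of 25 were tested, 2 were called higher and 0 lower (median 0.219). FOXO1, a transcription factor gene of early B cells, had 2 and 1 peaks in the WT lists and 14 and 16 in MT cells (log2 ratio 1.87, SE 0.302, adjusted p = 0.0238, and 0.0564 within GC classes). PAX5, the B cell identity factor gene, had 7 and 7 against 14 and 11 and did not pass (log2 ratio −0.25). A peak within 3 kb of the start was found at 3 and 3 of the 25 B lineage genes in WT lists and 5 and 6 in MT lists, and at 4, 6, 8 and 9 of 25 genes of other blood lineages, beside 15.0%, 16.6%, 32.5% and 34.8% of all genes, so peaks at gene starts did not mark the B lineage in these lists. Of genes of other blood lineages, 3 were tested and the adhesion gene NCAM1 was called higher, with 11 and 11 against 37 and 41 peaks (log2 ratio 0.69, adjusted p = 0.0294, and 0.0739 within GC classes).

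**Figure D5:**
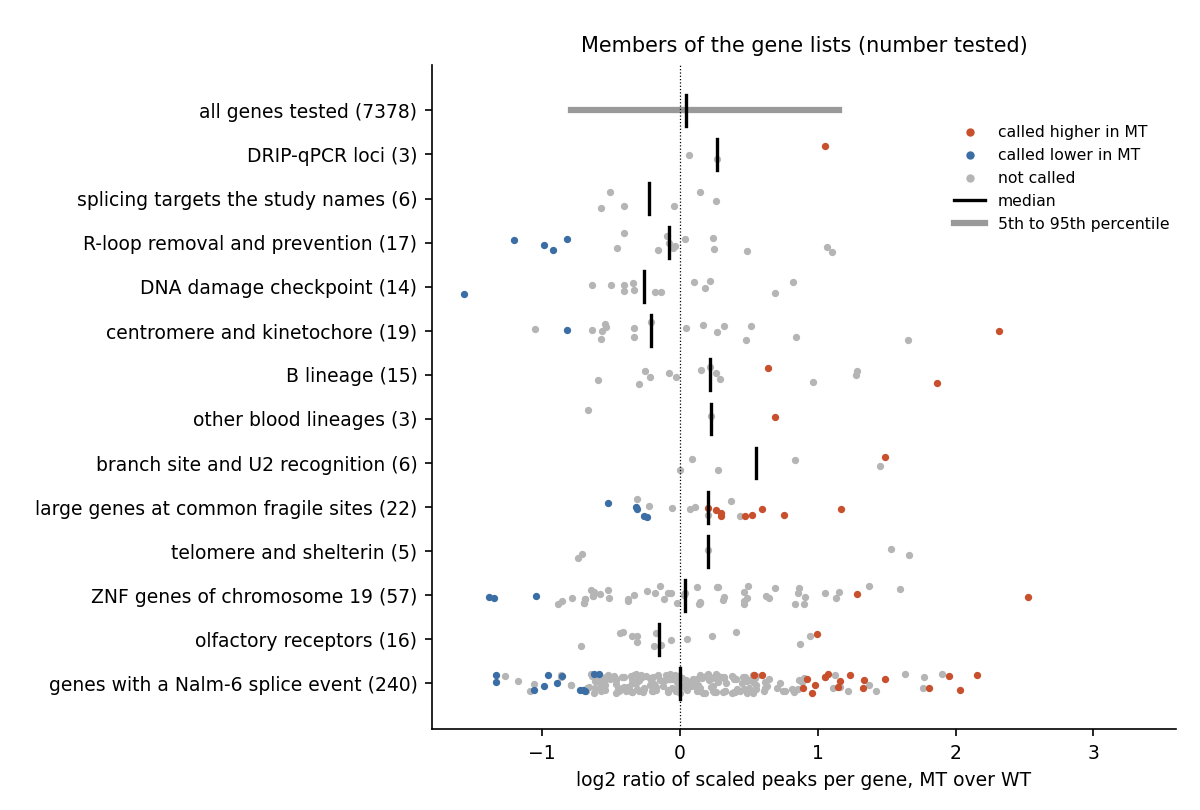
Scaled log2 ratio of peaks per gene, MT over WT, of the tested members of each gene group (points; vertical bars are medians), with the number tested in brackets, for groups with at least 3 tested members; the gray bar is the range from the 5th to the 95th percentile of all 7378 genes tested. Group medians lie between −0.258 and 0.554, and members of most groups are spread to both sides of 0.

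Repeated gene families had few members with enough peaks to test. Of 246 ZNF genes of chromosome 19, 57 were tested, with 2 called higher and 3 lower (median 0.0365, and −0.135 within GC classes). ZNF155 had 0 and 0 peaks in the WT lists and 6 and 7 in MT cells, and ZNF681 4 and 4 against 2 and 3. Reads from near-identical copies may be assigned to the wrong member, and these counts are uncertain. Of 400 olfactory receptor genes 16 were tested and 1 was called higher, of 80 ribosomal protein genes 2 were tested and 0 called, of 69 replication-dependent histone genes 1 was tested and 0 called, of 12 telomere and shelterin genes 5 were tested and 0 called, and of 39 HOX genes 0 were tested.

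Peaks were counted over 8 genes that the study also examined by DRIP-qPCR. Primer products were placed for ZNF90, SLC9A5 and DDX10 alone, and counts over the whole gene did not always follow them. SNRPN served as a negative control of DRIP-qPCR in the paper. Its count over the whole gene of 155.1 kb plus flanks, not the primer site, rose from 4 and 4 peaks in WT to 17 and 22 in MT cells (log2 ratio 1.05, SE 0.184, limma adjusted p = 0.0266, and 0.0968 within GC classes). NOP58 had 0 and 0 against 4 and 3. EGR1 and BTBD19 had no peak in any untreated list, and ING3 had 1 and 1 against 1 and 2. ZNF90 had 2 and 2 against 5 and 6 and SLC9A5 1 and 2 against 1 and 1. DDX10, an RNA helicase gene, had 17 and 15 peaks in the WT lists and 35 and 37 in MT cells over its 275.9 kb, in proportion to the lists (log2 ratio 0.06, SE 0.139, adjusted p = 0.792). Its primers amplify chr11:108687860-108687930, a product of 71 bp, and are printed for that contrast.
DDX10 forward: ggtttgtctgtccctcctcc
DDX10 reverse: tccatatacatgcccaccca
Both WT lists had a peak over this product and neither MT list did, and the nearest MT summit was 5.26 kb away in both MT lists. The product of SLC9A5 went the other way, with a peak over it in both MT lists and neither WT list, and that of ZNF90 had a peak in 1 MT list.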

How the data were processed

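DNA of uncrosslinked Nalm-6 cells was pulled down with S9.6, and per the study's methods the authors used BWA-MEM to align 50-bp reads to GRCh38, SAMtools to drop reads of mitochondria, Picard to drop duplicates, and MACS2 to call peaks. Each library has a list of its own, and how each list was called is not stated. The deposited lists give each peak's fold enrichment over its local background (a ratio), its −log10 p and −log10 q, and a score of 10 times −log10 q. The methods give a q threshold of 0.05, but no list holds a q above 0.01, so the settings behind the lists are not known. The lists hold neither reads nor an input, so the depth of a library is unknown, and a longer list can come from deeper sequencing.

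Peaks sharing 1 base with a protein-coding gene body plus 3 kb to each side, or with a 1-Mb window, were counted per list, as deposited and scaled to the mean total of the lists. limma 3.58.1 (R 4.3.3, trend) was run on log2(scaled peaks + 1) for genes averaging at least 3 and windows averaging at least 10 peaks, with Benjamini-Hochberg adjustment and a threshold of 0.05, and was tested on simulated data. An exact two-sided permutation test was used for single values (scipy 1.17.1). The groups came from the genotype and treatment in the labels. Named were the 12 genes with the highest and the lowest scaled ratio among genes averaging at least 6 peaks whose lists were apart on both scales, the 6 with the largest rise and the 6 with the largest fall as deposited, and the extremes of each gene list. The members and gene lists were chosen with earlier results of these data known. Alternatives changed the peak threshold, number of peaks, scaling, counting rule, flank, pseudocount, filter, window size, replicate block and lists used. Gene annotation was of GRCh38. The HEK293T splicing table was not used here, and values of 1 named gene and 1 peak sequence are not reported here.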

Additional observations from a re-analysis of the deposited data

Results flagged for a closer look

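Peaks outside chromosomes 1 to 22 and X were left out of every comparison. On chromosome Y the lists held 138 and 168 peaks in the WT lists and 426 and 563 in MT cells, means of 153.0 and 494.5, above the WT level. They made up 0.111% and 0.128% of the WT and 0.167% and 0.190% of the MT peaks. On unplaced sequences and other contigs there were 121 and 134 peaks in the WT lists and 260 and 275 in MT cells, means of 127.5 and 267.5, in shares that overlapped (0.0977% and 0.102% against 0.102% and 0.0927%).

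For 12 named genes the scaled lists were ordered one way between genotypes in the untreated lists and the opposite way in the RNH1-treated lists. Such switches were not particular to the named genes. Of the 1452 MT-higher genes averaging at least 6 peaks, 191 (13.2%) were lower in both RNH1-treated MT lists after scaling. Of the 330 genes limma called lower, 40 (12.1%) were higher in both. Lower in MT cells when untreated were TPR, WEE1, the checkpoint adaptor gene CLSPN and RAG1, with scaled log2 ratios of −1.27, −1.57, −0.637 and −0.595. Higher in MT cells when untreated were RBFOX1 (0.676), CSMD1 (0.295), RNASEH2B (1.1), CHEK2 (0.818), IKZF1 (1.28), RPL39L (0.796), ZNF155 (2.52) and DPY19L3 (1.95). Many rest on few peaks: WEE1 had 0 and 0 peaks in the RNH1-treated WT lists and 2 and 2 in the MT lists, and ZNF155 1 and 2 against 4 and 2. The difference between the untreated and RNH1-treated ratios was not tested.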

How the results depend on the processing

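The excess of peaks in MT lists kept its direction under every alternative run, with total log2 ratios from 0.996 to 1.22 when 1 list was left out. Genes with both MT lists higher as deposited numbered 3044 with as many peaks taken from each list as the shortest holds and 5129 after scaling (10925 to 11952 without 1 list), and genes with both lower 2905, 3871 and, by covered kb, 779 (597 to 1160 without 1 list). limma's genes called higher numbered 98 at a fold enrichment of at least 4, 0 with equal numbers of peaks, 4598 without scaling, 163 within GC classes, 1339 by covered kb and 872 without the filter (0 to 394 without 1 list), and those called lower 62, 0, 19, 218 and 946 for the first 5 of these (0 to 166 without 1 list). With equal numbers, limma gave an unadjusted p under 0.05 for 1358 of 5165 genes. Windows called higher numbered 275 with equal numbers, 2781 without scaling, 334 within GC classes and 1067 at 500 kb (261 to 801 without 1 list), and those called lower 285, 6 and, at 500 kb, 913 (322 to 621 without 1 list). A lone list left in a group was assumed to vary like the other group, and the causes of these moves were not tested. Without scaling the log2 ratio turned positive for EHMT1 (0.516), TRIM37 (0.959), AQR (0.108), WRN (0.230), ATM (0.624), NUF2 (0.161), PAX5 (0.746), IKZF3 (0.757), THSD7A (0.560), LRP1B (0.780), NBEA (0.771), OR5V1 (0.606) and the windows at chr4:7000001-8000000 (0.846) and chr4:8000001-9000000 (0.943). Within GC classes DAB1 turned to −0.130 and LRP1B to 0.106. Lists with the same replicate number did not deviate together (correlations of 0.00357 over genes and −0.0419 over windows), so the numbers were not taken to pair the lists. With the replicate block 556 genes were higher and 413 lower, and 642 and 559 windows.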
